A study of Mus musculus with 13 samples.

Results

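Foxp3 and 7 genes known from signatures of regulatory T cells (Ecm1, Fgl2, Capg, Folr4, Cd83, Dst and Plagl1) were followed across sorted splenic CD4 T cells of the mouse. The 8 genes were found by their symbols among the 18649 genes of the deposited table, and all 8 passed the filter on low values that left 14177 genes for testing. They were chosen by their levels in these same populations (PD1hi, Treg and Tconv), so levels and fold changes are given as a description, without p-values. Calls of the 8 genes are only counted beside those of all genes, and nothing is read from these counts. The question asked of the 8 genes was which are held by PD-1 high cells that lack Foxp3, and which are limited to Foxp3+ cells.

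The populations were sorted by surface PD-1 and by GFP, which marks Foxp3 in these cells. The PD1hi population, CD4+ cells high for PD-1 and negative for GFP, has 3 libraries. The Treg population, CD4+ cells positive for GFP and negative for PD-1, has 5 libraries. The Tconv population, conventional CD4+ cells negative for both, has 5 libraries. The labels name no treatment, the libraries come from experiments 3, 5 and 6, and each experiment has all 3 populations. Neither the mouse strain nor the construction of the GFP allele, nor the age and number of animals, is stated in the labels. Whether a pair of libraries of 1 experiment and population is another animal is not given either, so p-values measure only the spread between these samples, which may be technical. Since PD-1+ cells were kept out of the Treg gate, the Treg values describe PD-1 negative Treg only.

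Each library held 15971126 to 24216463 reads in genes. Levels are scaled counts, that is, reads divided by the library's size factor, and are given as the mean ± SD of 3 experiments (n = 3). Fold changes are differences of log2(scaled count + 1), with a standard error (SE) from limma; because of the added 1, they are too small for genes with few reads. The gene behind the PD-1 gate, Pdcd1, averaged 37372 ± 3290 scaled counts in PD1hi, 1955 ± 38.5 in Treg and 1132 ± 136 in Tconv. The summed level of 8 general CD4 T cell genes was 207569 to 211792 in PD1hi, 140968 to 164164 in Treg and 174531 to 190112 in Tconv, with no such gene at 0 reads throughout a population. Markers of CD8, NK and innate-like T cells (8 of 9 listed genes in the table) summed to 2597 to 3841 in PD1hi, 1064 to 1380 in Treg and 5811 to 8211 in Tconv. Most of that sum was 1 gene, Nkg7, with 2567 ± 677 in PD1hi, 662.0 ± 114 in Treg and 4111 ± 1264 in Tconv. Neither list overlapped between populations, and their part in the levels below was not tested. The pair of Treg libraries of experiment 3 stood apart from the other pairs: its chi-square per degree of freedom, which is 1 where only sampling noise parts 2 libraries, was 73.5, against 7.77 to 9.05 for the 3 other pairs.

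Foxp3 encodes the transcription factor that sets the identity of regulatory T cells, which restrain the responses of other T cells. Around it lies a wider signature of surface receptors, secreted proteins and cytoskeletal genes. Some of that signature is known to depend on Foxp3 and some also appears in activated or chronically stimulated T cells that lack it. PD-1, an inhibitory receptor, marks T cells under antigen stimulation, among them follicular helper cells of the spleen.

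RefSeq promoter windows (GRCm38.p6) run from 250 bases before to 50 bases after a gene's start. They were found for 7 of the 8 genes, 9 windows in all, with Folr4 under its RefSeq symbol Izumo1r. The parts before the start are shown for 4 genes: Foxp3, Ecm1 and Fgl2, which were lowest in PD1hi, and Folr4, whose PD1hi and Treg libraries overlapped. Capitals mark matches, on either strand, to motifs of factor families that act on Foxp3 or in T cell activation.
Foxp3 window 1 (chrX:7579426-7579675, + strand): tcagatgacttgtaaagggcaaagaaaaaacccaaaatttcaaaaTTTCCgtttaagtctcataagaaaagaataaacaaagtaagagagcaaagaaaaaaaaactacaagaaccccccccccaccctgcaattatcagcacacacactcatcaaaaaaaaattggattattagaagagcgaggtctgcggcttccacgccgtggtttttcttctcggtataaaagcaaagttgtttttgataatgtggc
Foxp3 window 2 (chrX:7580233-7580482, + strand): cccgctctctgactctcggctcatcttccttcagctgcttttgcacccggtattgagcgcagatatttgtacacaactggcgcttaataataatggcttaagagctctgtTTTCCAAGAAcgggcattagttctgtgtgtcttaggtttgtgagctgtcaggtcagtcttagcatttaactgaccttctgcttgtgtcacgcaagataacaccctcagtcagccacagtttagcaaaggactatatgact
Ecm1 (chr3:95739570-95739819, - strand): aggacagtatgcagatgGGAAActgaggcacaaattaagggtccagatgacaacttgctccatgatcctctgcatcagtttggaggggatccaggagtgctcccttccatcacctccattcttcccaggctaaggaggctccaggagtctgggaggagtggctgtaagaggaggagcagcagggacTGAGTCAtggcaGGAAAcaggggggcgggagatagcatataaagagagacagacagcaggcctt
Fgl2 (chr5:21372423-21372672, + strand): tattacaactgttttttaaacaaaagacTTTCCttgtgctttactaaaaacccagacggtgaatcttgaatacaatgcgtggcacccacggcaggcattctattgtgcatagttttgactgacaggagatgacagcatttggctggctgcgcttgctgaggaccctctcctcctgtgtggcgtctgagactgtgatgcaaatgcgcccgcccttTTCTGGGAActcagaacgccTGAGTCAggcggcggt
Folr4 (chr9:14903768-14904017, - strand): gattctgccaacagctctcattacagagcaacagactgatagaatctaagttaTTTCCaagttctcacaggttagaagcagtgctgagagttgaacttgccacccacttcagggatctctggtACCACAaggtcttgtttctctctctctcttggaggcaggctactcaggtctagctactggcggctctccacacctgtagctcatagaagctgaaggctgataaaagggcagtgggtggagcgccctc
The motifs searched were forkhead (GTAAACA, or TGTTTAC on the other strand), STAT (TTCNNNGAA), NFAT (GGAAA, or TTTCC), AP-1 (TGANTCA), Runx (TGTGGT, or ACCACA) and CRE (TGACGTCA). In Foxp3 window 2 the STAT match TTCCAAGAA, starting 139 bases before the start, overlaps an NFAT match. The Ecm1 and Fgl2 windows both hold the AP-1 match TGAGTCA, 64 and 16 bases before the start, and 7.81% of the 32851 promoters of the same table and length hold an AP-1 match. Fgl2 also holds a STAT match, TTCTGGGAA, 36 bases before its start, a motif found in 8.30% of all promoters. Folr4 holds a Runx match 127 bases before its start, found in 16.8% of all promoters. NFAT letters lie in windows of 5 of the 7 genes and in 61.3% of all promoters. No window of the 7 genes holds the forkhead letters (3.65% of all promoters) or the CRE letters (1.79%). The Capg and Plagl1 windows hold none of these motifs. The Plagl1 window and 1 of the 2 Dst windows are rich in G and C, at 70.7% and 70.3%, against a median of 52.7% over all promoters and 40.7% in Foxp3 window 1. These matches are a description of the letters and not of binding.

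The 8 genes showed 4 patterns by their level in PD1hi. Foxp3, Ecm1 and Fgl2 were at 0.667%, 4.74% and 6.80% of their Treg level in PD1hi and were also lower in PD1hi than in Tconv. Capg was between, at 30.5% of its Treg level in PD1hi and 15.6% in Tconv. Folr4, Cd83 and Dst were at 106%, 98.7% and 113% of their Treg level in PD1hi, and at 23.1%, 4.17% and 11.7% in Tconv. Plagl1 was at 506% of its Treg level in PD1hi and at 9.82% in Tconv. By these levels Folr4, Cd83, Dst and Plagl1 were held by PD1hi cells without Foxp3, Capg was held in part, and Foxp3, Ecm1 and Fgl2 were not held. Foxp3 itself came nearest to being limited to Treg, with 1.83% of its Treg level in Tconv. In bulk samples such as these, fewer cells with a transcript and less transcript per cell cannot be told apart.

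**Figure D1:**
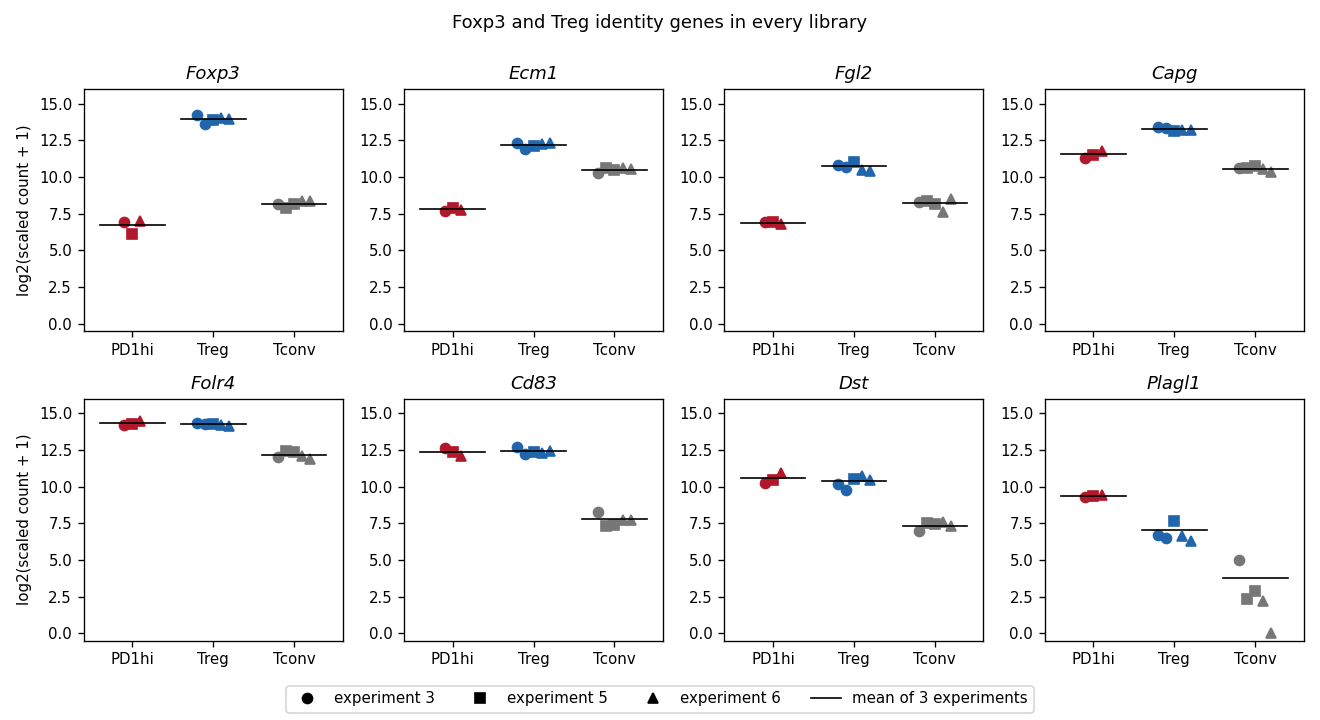
Level of each of the 8 genes as log2(scaled count + 1), with 1 point per library (3 PD1hi, 5 Treg and 5 Tconv libraries, marker shape for the experiment) and a line at the mean of the 3 experiments. PD1hi points lie below both other populations for Foxp3, Ecm1 and Fgl2, overlap the Treg points for Folr4, Cd83 and Dst, and lie above both for Plagl1.

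In PD1hi against Tconv, limma called 5 of the 8 genes higher and 3 lower (adjusted p under 0.05), where it called 26.1% of all genes tested, 14.2% higher and 11.9% lower. Of all these calls 54.4% were thus higher, and 65.4% with libraries scaled to equal totals. The PD1hi and Tconv libraries of all 8 genes did not overlap, as was so for 33.8% of all genes, 17.5% with PD1hi above and 16.3% with PD1hi below. In PD1hi against Treg, 1 gene was called higher and 4 lower, where 16.5% of all genes were called, 8.16% higher and 8.39% lower. Scaled to equal totals, the higher calls made up 56.0% of all calls there, against 49.3%. The libraries of those 5 genes did not overlap, 1 above and 4 below, against 22.5% of all genes, 11.7% above and 10.8% below. In Treg against Tconv, all 8 were called higher and 0 lower, where 14.4% of all genes were called, 8.73% higher and 5.66% lower. There too the libraries of all 8 genes did not overlap, against 19.7% of all genes, 10.6% above and 9.13% below. These contrasts are the ones that chose the genes, so nothing is read from these counts.

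Among the transcription factors, Foxp3 (ENSMUSG00000039521) is what the GFP gate selected. It had 120.9, 67.7 and 129.4 scaled counts in the PD1hi libraries of experiments 3, 5 and 6. The Treg libraries had 18885 and 12904 in experiment 3, 15373 in experiment 5, and 16455 and 16345 in experiment 6. The Tconv libraries had 290.9 in experiment 3, 231.6 and 280.5 in experiment 5, and 323.2 and 331.8 in experiment 6. No library of 1 population reached into the range of another, and the PD1hi libraries were the lowest.

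The 3 PD1hi libraries together held 304 Foxp3 reads, the Treg libraries 86089 and the Tconv libraries 1431. The mean level was 106.0 ± 33.4 in PD1hi, 15889 ± 513 in Treg and 291.5 ± 35.8 in Tconv. The log2 fold change was -1.50 ± 0.22 (SE) for PD1hi against Tconv, with -1.26, -1.90 and -1.33 in experiments 3, 5 and 6. It was -7.27 ± 0.22 for PD1hi against Treg and 5.77 ± 0.22 for Treg against Tconv. Foxp3 transcript in the cells sorted as GFP negative was thus lower in the PD-1 high cells than in the PD-1 negative cells in each experiment.

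Plagl1 (ENSMUSG00000019817), an imprinted zinc finger factor known for slowing the cell cycle, ran the other way. The PD1hi libraries had 614.9, 651.7 and 681.6 scaled counts in experiments 3, 5 and 6. Treg had 103.0 and 87.4 in experiment 3, 203.1 in experiment 5, and 96.5 and 77.6 in experiment 6. Tconv had 30.9 in experiment 3, 3.96 and 6.40 in experiment 5, and 3.55 and 0 in experiment 6.

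The populations did not overlap, and PD1hi was the most even of them (CV 5.15%, against 50.5% in Treg and 126% in Tconv). The Treg mean of 128.4 ± 64.8 rests in part on experiment 5, whose library (203.1) lay above the range of the other Treg libraries (77.6 to 103.0). The Tconv mean of 12.6 ± 15.9 rests on 42 reads in 5 libraries, most of them in experiment 3. The log2 fold change of PD1hi (649.4 ± 33.4) was 6.31 ± 0.69 against Tconv and 2.44 ± 0.69 against Treg, and that of Treg against Tconv was 3.88 ± 0.69. By experiment the Treg against Tconv difference was 1.59, 5.05 and 4.99 in experiments 3, 5 and 6. Without the Tconv value of experiment 3 it was 4.86, and with a pseudocount of 10 it was 2.74.

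Folr4 (ENSMUSG00000031933), a surface protein of the folate receptor family that on the mouse egg is the receptor for the sperm protein Izumo1, is the member with the highest level per length. It had 18800, 20336 and 23188 scaled counts in the PD1hi libraries of experiments 3, 5 and 6. In Treg there were 21124 and 20052 in experiment 3, 19625 in experiment 5, and 18955 and 18371 in experiment 6. In Tconv there were 4190 in experiment 3, 5444 and 5199 in experiment 5, and 4384 and 3809 in experiment 6.

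PD1hi and Treg overlapped, and every Tconv library was below both. PD1hi averaged 20775 ± 2226, Treg 19625 ± 963 and Tconv 4536 ± 682. The log2 fold change of PD1hi was 2.20 ± 0.14 against Tconv and 0.08 ± 0.14 against Treg. By experiment the PD1hi against Treg difference was -0.13, 0.05 and 0.31, so the 3 experiments differed in its sign.

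Cd83 (ENSMUSG00000015396) is a surface protein of the immunoglobulin superfamily, best known from mature dendritic cells and activated B cells. It had 6506, 5205 and 4358 scaled counts in the PD1hi libraries of experiments 3, 5 and 6. Treg libraries held 6559 and 4821 in experiment 3, 5191 in experiment 5, and 5160 and 5641 in experiment 6. Tconv libraries held 304.8 in experiment 3, 160.3 and 167.4 in experiment 5, and 213.1 and 207.0 in experiment 6.

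PD1hi and Treg again overlapped, and both lay far above Tconv. PD1hi averaged 5357 ± 1082, Treg 5427 ± 250 and Tconv 226.2 ± 71.8. As log2, the fold change of PD1hi was 4.59 ± 0.21 against Tconv and -0.04 ± 0.21 against Treg, and that of Treg against Tconv was 4.62 ± 0.21. By experiment the PD1hi against Treg difference was 0.19, 0.00 and -0.31.

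Since Cd83 is also a gene of B cells and dendritic cells, their markers are given beside it. Of 11 tested B cell markers, 5 rose and 0 fell in PD1hi against Tconv, where 14.2% of all genes tested rose and 11.9% fell. In PD1hi against Treg 1 rose and 4 fell, against 8.16% and 8.39% of all genes. In Treg against Tconv 5 rose and 0 fell, against 8.73% and 5.66% of all genes. The 1 that rose in PD1hi against Treg was Cd22, an inhibitory receptor of B cells, with 1675 ± 243 in PD1hi, 240.9 ± 30.7 in Treg and 178.5 ± 51.8 in Tconv (2.79 ± 0.23, adjusted p = 5.26e-06). The summed scaled count of the B cell marker list (16 of 17 genes in the table) was 45535 to 59400 in PD1hi, 71932 to 94579 in Treg and 24097 to 32262 in Tconv. Most of it was the antibody gene Ighm, with 36646 ± 2560 in PD1hi, 65037 ± 3997 in Treg and 21764 ± 1496 in Tconv. Plasma cell markers (6 of 8 genes in the table) summed to 5826 to 9104 in PD1hi, 7862 to 10864 in Treg and 2703 to 3620 in Tconv. That list shares Prdm1 with the other Treg signature genes below, and Irf4 and Xbp1 with the Foxp3 regulators below. Its largest part was Igj, with 3866 ± 1352 in PD1hi, 4316 ± 1350 in Treg and 1586 ± 406 in Tconv. Sdc1 had 49.1 ± 20.3, 32.4 ± 29.9 and 17.8 ± 13.2 in the same order. The dendritic and myeloid list (16 of 20 genes in the table) summed to 657.8 to 912.1 in PD1hi, 439.2 to 1225 in Treg and 617.5 to 1090 in Tconv, so its ranges overlapped. No marker of these lists was at 0 in every library of a population. The part of such cells in the Cd83 levels was not tested.

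Of the secreted proteins, Ecm1 (ENSMUSG00000028108), a glycoprotein of the extracellular matrix, was the member with the largest gap below Tconv. It had 209.1, 235.4 and 217.4 scaled counts in the PD1hi libraries of experiments 3, 5 and 6. The Treg libraries had 5115 and 3875 in experiment 3, 4455 in experiment 5, and 4849 and 5208 in experiment 6. The Tconv libraries had 1251 in experiment 3, 1545 and 1439 in experiment 5, and 1601 and 1495 in experiment 6.

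The 3 populations did not overlap and stood in the order Treg, Tconv, PD1hi. PD1hi averaged 220.6 ± 13.5, Treg 4660 ± 320 and Tconv 1430 ± 158. The log2 fold change of PD1hi was -2.69 ± 0.14 against Tconv and -4.39 ± 0.14 against Treg, and that of Treg against Tconv was 1.71 ± 0.14. Ecm1 was therefore not limited to Treg: Tconv held 30.7% of the Treg level, the highest Tconv share of the 8 genes.

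Fgl2 (ENSMUSG00000039899), a fibrinogen-like protein that is secreted by Treg as a suppressive factor and is also known from macrophages, followed the same order. It had 120.9, 123.3 and 108.7 scaled counts in the PD1hi libraries of experiments 3, 5 and 6. Treg had 1808 and 1656 in experiment 3, 2069 in experiment 5, and 1418 and 1362 in experiment 6. Tconv had 318.6 in experiment 3, 333.5 and 288.0 in experiment 5, and 193.0 and 354.1 in experiment 6.

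The Tconv library with 193.0 came nearest to PD1hi, and the populations did not overlap. PD1hi averaged 117.6 ± 7.82, Treg 1730 ± 339 and Tconv 301.0 ± 24.1. As log2, the fold change of PD1hi was -1.35 ± 0.19 against Tconv, with -1.39, -1.33 and -1.32 by experiment, and -3.85 ± 0.19 against Treg. That of Treg against Tconv was 2.50 ± 0.19. The overlapping ranges of the myeloid list given for Cd83 stand beside this result too, and the part of macrophages in it was not tested.

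Of the cytoskeletal genes, Capg (ENSMUSG00000056737), an actin capping protein of the gelsolin family, was the only one of the 8 whose PD1hi libraries all lay between those of the other populations without overlap. It had 2483, 2962 and 3533 scaled counts in the PD1hi libraries of experiments 3, 5 and 6. In Treg there were 11071 and 10534 in experiment 3, 9215 in experiment 5, and 9327 and 9524 in experiment 6. In Tconv there were 1565 in experiment 3, 1564 and 1697 in experiment 5, and 1513 and 1310 in experiment 6.

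No libraries of different populations overlapped. PD1hi averaged 2993 ± 526, Treg 9814 ± 862 and Tconv 1536 ± 112. The log2 fold change of PD1hi was 0.95 ± 0.15 against Tconv, with 0.67, 0.86 and 1.32 in experiments 3, 5 and 6, and -1.72 ± 0.15 against Treg. That of Treg against Tconv was 2.67 ± 0.15.

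Dst (ENSMUSG00000026131) encodes dystonin, a giant plakin that links cytoskeletal filaments. It had 1248, 1425 and 1913 scaled counts in the PD1hi libraries of experiments 3, 5 and 6. Treg libraries held 1181 and 883.7 in experiment 3, 1484 in experiment 5, and 1697 and 1418 in experiment 6. Tconv libraries held 125.7 in experiment 3, 183.1 and 170.6 in experiment 5, and 189.4 and 157.4 in experiment 6.

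PD1hi and Treg overlapped, and every Tconv library was lower. PD1hi averaged 1529 ± 345, Treg 1358 ± 285 and Tconv 158.7 ± 28.6. As log2, the fold change of PD1hi was 3.25 ± 0.22 against Tconv and 0.17 ± 0.22 against Treg, with 0.27, -0.06 and 0.30 against Treg by experiment. That of Treg against Tconv was 3.08 ± 0.22.

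**Figure D2:**
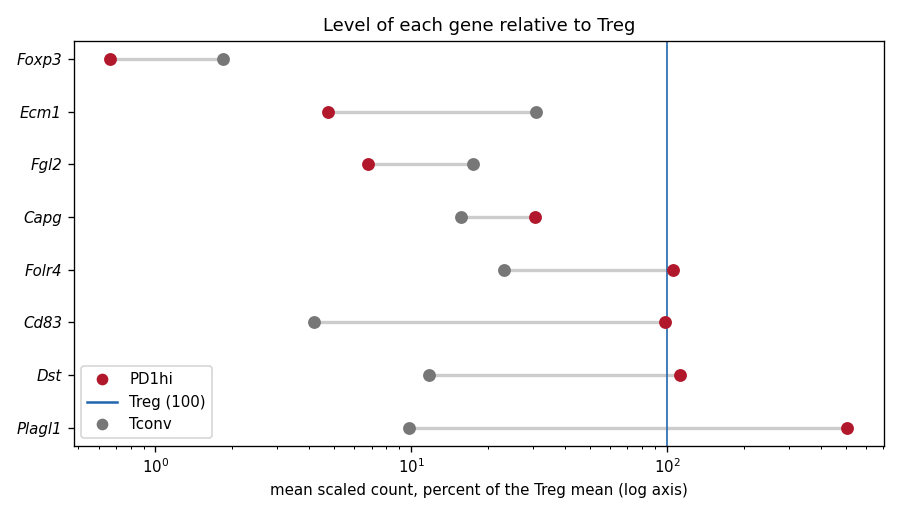
Mean scaled count of each gene in PD1hi (red) and Tconv (grey) as a percent of its Treg mean (blue line at 100), on a log axis. PD1hi runs from 0.667% for Foxp3 to 506% for Plagl1, and Tconv from 1.83% for Foxp3 to 30.7% for Ecm1.

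Levels of different genes can be set side by side only per length, here scaled counts per kilobase of annotated exon. In PD1hi the order was Folr4 (8955), Cd83 (2083), Capg (1183), Ecm1 (87.5), Plagl1 (83.1), Dst (37.1), Fgl2 (31.1) and Foxp3 (23.2). In Treg it was Folr4 (8459), Capg (3881), Foxp3 (3472), Cd83 (2110), Ecm1 (1848), Fgl2 (457), Dst (33.0) and Plagl1 (16.4). In Tconv it was Folr4 (1955), Capg (607), Ecm1 (567), Cd83 (88.0), Fgl2 (79.5), Foxp3 (63.7), Dst (3.86) and Plagl1 (1.61). Among the 13447 tested genes with a length, Folr4 stood above 99.4% in PD1hi and in Treg, and above 96.4% in Tconv. Foxp3 stood above 20.0% of genes in PD1hi, 98.2% in Treg and 40.1% in Tconv. The level of Dst is spread over 41155 bases of annotated exon, those of all its isoforms together.

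Without the second Treg library of experiment 3 the Treg mean of Foxp3 was 16886 ± 1805, and PD1hi held 0.628% of it. The PD1hi shares of the 7 other genes were then 4.53% (Ecm1), 6.70% (Fgl2), 30.2% (Capg), 105% (Folr4), 93.7% (Cd83), 109% (Dst) and 496% (Plagl1), so no gene left its pattern.

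The nearest genes on the chromosome that have values in the table, by the order in RefSeq, were measured beside each member, since they were no part of the choice. Of 16 neighbours 14 were tested. In PD1hi against Tconv 1 was higher and 1 lower, where 14.2% of all genes tested were called higher and 11.9% lower. In PD1hi against Treg 0 were higher and 5 lower, against 8.16% and 8.39% of all genes. In Treg against Tconv 4 were higher and 0 lower, against 8.73% and 5.66% of all genes. Gpr83, beside Folr4, is also in the list of other Treg signature genes below, and 4930524L23Rik and Ccdc22 overlap Foxp3. All of these are among the 5 lower in PD1hi against Treg and the 4 higher in Treg against Tconv. Those counts are therefore in part a repeat of the choice. Adjusted p-values here and below are Benjamini-Hochberg adjusted values of limma over all 14177 genes.

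Folr4 and its direct neighbour Gpr83, an orphan type G protein coupled receptor of the Treg signature, were parted in PD1hi. Gpr83 averaged 439.3 ± 109 scaled counts in PD1hi, 8801 ± 791 in Treg and 514.1 ± 26.7 in Tconv. Its log2 fold change was -4.35 ± 0.18 for PD1hi against Treg (adjusted p = 3.07e-08) and 4.09 ± 0.18 for Treg against Tconv (adjusted p = 7.91e-08). For PD1hi against Tconv it was -0.26 ± 0.18 (adjusted p = 0.345), where Folr4 had 2.20 ± 0.14. Panx1, a channel protein on the other side of Folr4, had 336.1 ± 186 in PD1hi, 699.3 ± 108 in Treg and 286.3 ± 29.4 in Tconv. It fell by 1.18 ± 0.31 in PD1hi against Treg (adjusted p = 0.0200), a call lost without PD1hi experiment 3 or 5 or without Treg experiment 3 or 5 (adjusted p = 0.0675 to 0.0793).

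Both neighbours of Foxp3 overlap it in RefSeq. The strand setting of the counting is not given in the sources used here, so reads of Foxp3 and of these genes cannot be told apart with certainty. 4930524L23Rik, named Flicr in RefSeq, a noncoding RNA next to Foxp3, had 8.13 ± 6.17 scaled counts in PD1hi, 416.4 ± 83.8 in Treg and 20.5 ± 8.78 in Tconv. It fell by 5.69 ± 0.48 in PD1hi against Treg (adjusted p = 7.08e-06) and rose by 4.34 ± 0.48 in Treg against Tconv (adjusted p = 8.28e-05). Ccdc22, a gene of endosome recycling, had 38.2 ± 12.1 in PD1hi, 538.3 ± 32.4 in Treg and 115.7 ± 29.6 in Tconv. Its log2 fold change in PD1hi was -3.83 ± 0.29 against Treg (adjusted p = 2.83e-06) and -1.59 ± 0.29 against Tconv (adjusted p = 0.00150).

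Bend6, which overlaps Dst in RefSeq, did not follow Dst. It had 22.4 ± 17.6 scaled counts in PD1hi, 102.0 ± 12.5 in Treg and 62.5 ± 6.82 in Tconv. It fell by 2.74 ± 0.73 in PD1hi against Treg (adjusted p = 0.0219), where Dst had 0.17 ± 0.22. The call was lost when any 1 Treg experiment was left out (adjusted p = 0.0576 to 0.0709). Fam185a, next to Fgl2, rose in PD1hi against Tconv by 1.26 ± 0.29 (adjusted p = 0.00657), at 102.1 ± 10.9 against 42.2 ± 5.87, where Fgl2 had -1.35 ± 0.19.

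The other tested neighbours did not pass in any comparison. They are Adamtsl4 and Tars2 beside Ecm1, Mat2a and Elmod3 beside Capg, Jarid2 beside Cd83, Ccdc115 beside Dst, and Sf3b5 and Ltv1 beside Plagl1. Their log2 fold changes lay between -0.42 (Ltv1, Treg against Tconv) and 0.78 (Jarid2, PD1hi against Tconv). Under other settings, of which 18 were tried, some of these neighbours passed. So did Bend6, 4930524L23Rik and Fam185a in comparisons where they had not passed above. Jarid2 was then higher in PD1hi against Tconv under 4 of them (adjusted p = 0.00233 to 0.0472, and 0.0189 with experiment as a replicate block) and against Treg under 3 (0.00380 to 0.0469, and 0.0304 with the block). Elmod3 was higher in PD1hi against Treg with equal totals (0.0440), and Ltv1 was lower in Treg against Tconv under 2 settings (0.0405 and 0.0481). Bend6 was lower in PD1hi against Tconv under 6 settings (adjusted p = 0.0205 to 0.0476, the highest with the block), and 4930524L23Rik under 2 (0.00492 and 0.0336). Fam185a was higher in Treg against Tconv under 2 settings (0.0464 and 0.0475). Ccdc146 beside Fgl2 and Rnf182 beside Cd83 were too low to test.

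**Figure D3:**
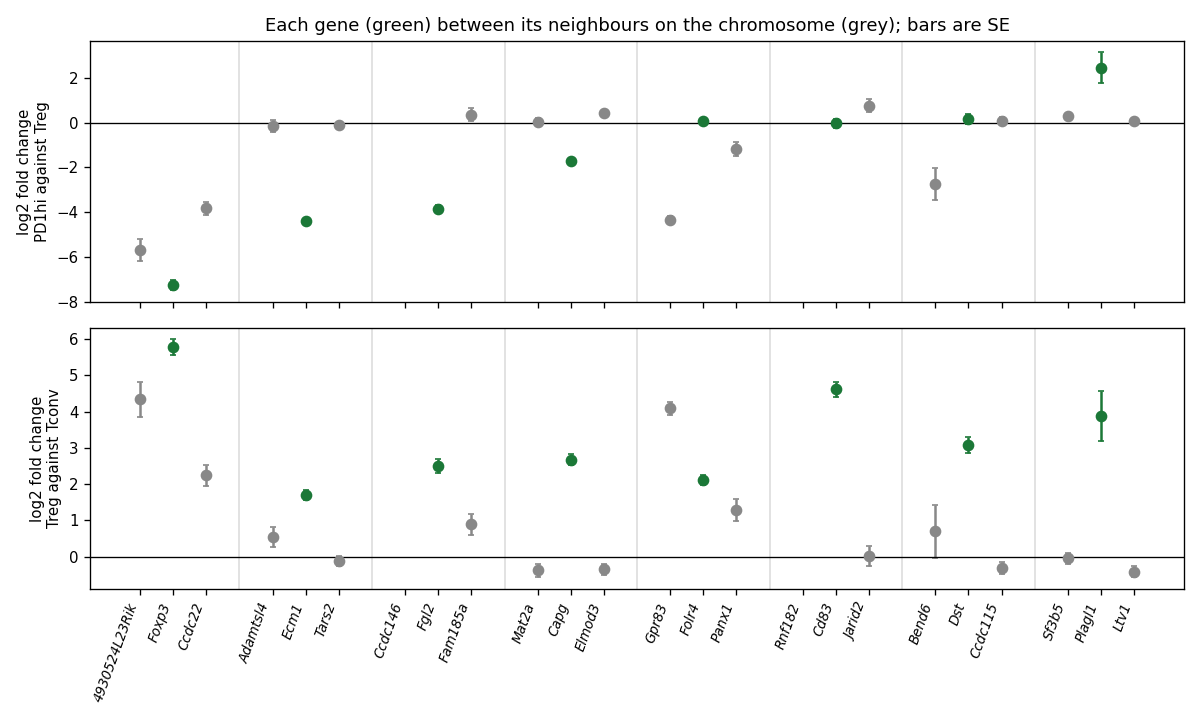
Log2 fold change with SE of each of the 8 genes (green) between its neighbours on the chromosome (grey), for PD1hi against Treg (upper) and Treg against Tconv (lower); 2 neighbours that were too low to test have no point. Foxp3 and its 2 overlapping neighbours share a direction in both comparisons, while Folr4 (0.08) stands apart from Gpr83 (-4.35) in PD1hi against Treg.

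A list of 36 other genes known to be high in Treg gives the rest of the signature, and all 36 were tested. In Treg against Tconv 36 rose, where 8.73% of all genes tested rose and 5.66% fell. The median log2 fold change was 2.89, against 0.01 over all genes tested. In PD1hi against Tconv 24 rose, 5 fell and 7 did not pass, where 14.2% of all genes rose and 11.9% fell. The median there was 1.52, against 0.00 over all genes. In PD1hi against Treg 5 rose, 21 fell and 10 did not pass, where 8.16% of all genes rose and 8.39% fell. The median there was -1.02, against -0.01 over all genes. The 3 comparisons share libraries, so their counts are not independent of each other, and the list was drawn up with earlier results of these data known.

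The 21 genes that fell in PD1hi against Treg were led by Lrrc32, which presents latent TGF-beta on Treg. Lrrc32 averaged 12.1 ± 2.67 scaled counts in PD1hi, 5687 ± 436 in Treg and 7.07 ± 3.97 in Tconv, with a log2 fold change of -8.78 ± 0.34 for PD1hi against Treg (adjusted p = 1.45e-08). The integrin Itgae had 28.4 ± 4.24 in PD1hi, 7264 ± 328 in Treg and 85.5 ± 25.1 in Tconv, and fell by 7.96 ± 0.23 against Treg (adjusted p = 1.58e-09). The IL-2 receptor alpha chain Il2ra had 343.6 ± 31.3 in PD1hi, 24686 ± 994 in Treg and 535.3 ± 51.1 in Tconv, and fell by 6.17 ± 0.13 against Treg (adjusted p = 1.63e-10). Klrg1, an inhibitory lectin-like receptor, fell by 5.33 ± 0.68 against Treg (adjusted p = 0.000154), at 34.6 ± 32.5 in PD1hi and 1132 ± 444 in Treg.

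Of these, Itgae, Il2ra and Klrg1 also fell in PD1hi against Tconv, with log2 fold changes of -1.53 ± 0.23 (adjusted p = 0.000371), -0.64 ± 0.13 (adjusted p = 0.00359) and -2.68 ± 0.68 (adjusted p = 0.0110), the order of populations seen for Foxp3, Ecm1 and Fgl2. Il1rl1, the receptor of the alarm cytokine interleukin 33, had -2.21 ± 0.61 there (adjusted p = 0.0189), at 28.3 ± 30.9 against 91.3 ± 23.1, but not without PD1hi experiment 3 or Tconv experiment 5 (adjusted p = 0.0518 and 0.0646) or with only these 2 populations in the fit (0.0545). Ikzf4, a zinc finger partner of Foxp3, had 447.2 ± 51.9 in PD1hi, 3860 ± 208 in Treg and 376.0 ± 11.6 in Tconv. Like Ikzf4, the inhibitory receptor Ctla4 fell against Treg, but it kept more of its level: 3377 ± 261 in PD1hi, 9799 ± 902 in Treg and 521.3 ± 71.8 in Tconv.

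Of the 10 genes that did not pass in PD1hi against Treg, Itgb8, an integrin chain that activates TGF-beta, had 3139 ± 268 in PD1hi, 1851 ± 326 in Treg and 69.5 ± 38.0 in Tconv. It rose by 5.60 ± 0.29 in PD1hi against Tconv (adjusted p = 1.76e-07). The cytokine gene Il10 rose by 4.61 ± 0.61 in PD1hi against Tconv (adjusted p = 0.000150), with 241.7 ± 65.7 in PD1hi, 259.6 ± 88.7 in Treg and 12.98 ± 14.0 in Tconv. Ikzf2, which encodes the Treg factor Helios, had 16611 ± 2145 in PD1hi, 20942 ± 1843 in Treg and 1006 ± 116 in Tconv. The 7 others were Nrp1, Nt5e, Tigit, Icos, Cd81, S100a4 and Nrn1. With the replicate block Tigit passed as higher (adjusted p = 0.0462, limma) and Cd81 as lower (adjusted p = 0.0433) in PD1hi against Treg. Log2 fold changes of the 10 genes in PD1hi against Treg lay between -0.45 ± 0.16 (Cd81) and 0.77 ± 0.29 (Itgb8), and not passing does not show equal levels.

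The 5 genes that rose in PD1hi against Treg were Rgs16, Lag3, Il1r2, Penk and S100a6, and Plagl1 shares that order of populations. Rgs16, a brake on G protein signals, had 2491 ± 200 in PD1hi, 537.4 ± 150 in Treg and 56.8 ± 20.3 in Tconv, and rose by 2.24 ± 0.28 against Treg (adjusted p = 0.000151). The inhibitory receptor Lag3 rose by 2.13 ± 0.49 (adjusted p = 0.0100), at 4666 ± 1527 in PD1hi and 1123 ± 626 in Treg, and had adjusted p = 0.0519 without Treg experiment 3. Il1r2, a decoy receptor for IL-1, rose by 1.48 ± 0.45 (adjusted p = 0.0430), at 2605 ± 326 in PD1hi and 930.3 ± 96.0 in Treg. The opioid precursor gene Penk rose by 0.90 ± 0.22 (adjusted p = 0.0132), at 1979 ± 342 in PD1hi and 1073 ± 265 in Treg. The calls of Il1r2, Penk and S100a6 were each lost when 1 experiment of PD1hi or Treg was left out: any of the 6, and Tconv experiment 5, for Il1r2 (adjusted p = 0.0557 to 0.130), PD1hi experiment 3 or Treg experiment 5 or 6 for Penk (0.0542 to 0.0636), and PD1hi experiment 5 or Treg experiment 5 or 6 for S100a6 (0.0936 to 0.115).

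**Figure D4:**
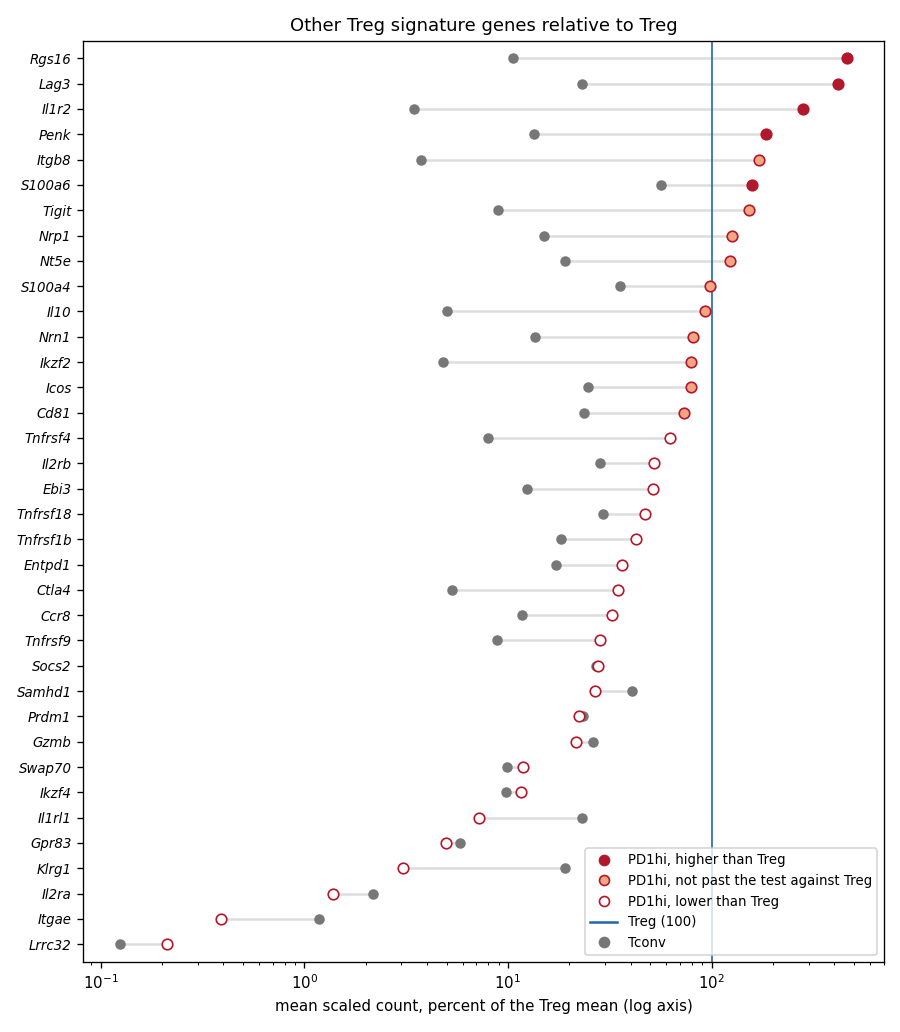
Mean scaled count of 36 other Treg signature genes in PD1hi (red outlines, filled by the limma call against Treg) and Tconv (grey) as a percent of the Treg mean (blue line at 100), on a log axis. PD1hi runs from 0.213% for Lrrc32 to 464% for Rgs16, with 5 genes higher than in Treg, 10 not past the test and 21 lower.

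Of 18 genes known to be low in Treg or repressed by Foxp3, 15 fell and 1 rose in Treg against Tconv. Of all genes tested 5.66% fell and 8.73% rose in that comparison. In PD1hi against Treg 9 rose and 6 fell, against 8.16% and 8.39% of all genes. In PD1hi against Tconv 4 rose and 10 fell, against 14.2% and 11.9% of all genes. Among the cytokine genes, Il21 averaged 3296 ± 683 scaled counts in PD1hi, 1.77 ± 0.927 in Treg and 104.4 ± 47.7 in Tconv. Il4 averaged 435.4 ± 83.9 in PD1hi, 5.63 ± 6.10 in Treg and 83.3 ± 22.1 in Tconv, and Ifng 1757 ± 320 in PD1hi, 115.9 ± 61.4 in Treg and 612.2 ± 225 in Tconv. In PD1hi against Treg Il21 rose by 10.25 ± 0.36 (adjusted p = 6.71e-09), Il4 by 6.40 ± 0.53 (adjusted p = 5.45e-06) and Ifng by 4.03 ± 0.36 (adjusted p = 1.03e-05). Satb1, a chromatin organiser of resting T cells, had 287.2 ± 36.6 in PD1hi, 2408 ± 184 in Treg and 6827 ± 322 in Tconv, and fell by 3.07 ± 0.14 in PD1hi against Treg (adjusted p = 4.13e-08). Igfbp4, an IGF binding protein, had 34.2 ± 12.7 in PD1hi, 313.6 ± 95.0 in Treg and 2706 ± 885 in Tconv, and fell by 3.18 ± 0.34 in PD1hi against Treg (adjusted p = 4.02e-05). Arl5c, a small GTPase, was the 1 gene of the list that rose in Treg against Tconv (0.57 ± 0.14, adjusted p = 0.0134), a call lost without Treg experiment 6 or Tconv experiment 3 (adjusted p = 0.0604 and 0.0735).

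A list of 42 regulators of Foxp3 holds factors known to act on its locus or to bind its protein. It also holds the IL-2 receptor chains Il2ra and Il2rb. Of the 42, 14 rose and 9 fell in PD1hi against Tconv, where 14.2% of all genes tested rose and 11.9% fell. In PD1hi against Treg 5 rose and 8 fell, against 8.16% and 8.39% of all genes. In Treg against Tconv 8 rose and 4 fell, against 8.73% and 5.66% of all genes. Il2ra, Il2rb, Ikzf2 and Ikzf4 are also in the Treg signature list, and Tcf7, Lef1 and Satb1 in the list of genes low in Treg. Hif1a, the oxygen sensing factor, had 12360 ± 882 in PD1hi, 5424 ± 1083 in Treg and 1594 ± 70.3 in Tconv. It rose by 2.95 ± 0.15 against Tconv (adjusted p = 1.51e-07) and by 1.20 ± 0.15 against Treg (adjusted p = 0.000132). Foxo1, which promotes Foxp3 transcription, had 1954 ± 131 in PD1hi, 6211 ± 1056 in Treg and 5239 ± 927 in Tconv. Its log2 fold change in PD1hi was -1.65 ± 0.17 against Treg (adjusted p = 2.65e-05) and -1.41 ± 0.17 against Tconv (adjusted p = 6.34e-05). Tcf7, a factor of naive and follicular helper cells, had 33786 ± 3354 in PD1hi, 5238 ± 338 in Treg and 34944 ± 2625 in Tconv, and rose by 2.69 ± 0.13 in PD1hi against Treg (adjusted p = 7.45e-08). The orphan nuclear receptor Nr4a2 rose by 2.32 ± 0.49 in PD1hi against Tconv (adjusted p = 0.00401), at 263.0 ± 36.9 against 63.4 ± 43.2.

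Protein relatives of the 8 genes were followed as well. Of 22 listed, 16 were in the table and 13 were tested. In PD1hi against Tconv 2 rose and 5 fell, where 14.2% of all genes tested rose and 11.9% fell. In PD1hi against Treg 1 rose and 2 fell, against 8.16% and 8.39% of all genes. In Treg against Tconv 1 rose and 2 fell, against 8.73% and 5.66% of all genes. Nothing is read from these small counts. All 3 calls in PD1hi against Treg were lost when 1 experiment was left out. Scin, a gelsolin relative, had 2.20 ± 0.63 in PD1hi against Treg (adjusted p = 0.0317), a call lost without PD1hi experiment 3 or 5 or Treg experiment 3 or 6 (0.0958 to 0.128). The plakin Macf1 had -0.85 ± 0.22 (adjusted p = 0.0213), lost without PD1hi experiment 3 or Treg experiment 5 or 6 (0.0601 to 0.0973). The villin relative Svil had -0.79 ± 0.20 (adjusted p = 0.0191), lost without Treg experiment 6 (0.0900). Foxp1, a forkhead factor of resting T cells, fell by 0.89 ± 0.12 in PD1hi against Tconv (7786 ± 420 against 14406 ± 824, adjusted p = 0.000231) and fell by 0.63 ± 0.12 in Treg against Tconv (9339 ± 1087 against 14406 ± 824, adjusted p = 0.00453). Gsn, the gelsolin that gives the family of Capg its name, fell by 1.01 ± 0.17 in PD1hi against Tconv (1150 ± 201 against 2297 ± 86.1, adjusted p = 0.000887) and fell by 1.23 ± 0.17 in Treg against Tconv (989.1 ± 175 against 2297 ± 86.1, adjusted p = 0.000424). Capg had 0.95 ± 0.15 and 2.67 ± 0.15 in these comparisons. Macf1, the relative closest to Dst in kind, fell by 0.98 ± 0.22 in PD1hi against Tconv (6648 ± 1480 against 13073 ± 2489, adjusted p = 0.00611), where Dst had 3.25 ± 0.22. Plagl2 rose by 0.63 ± 0.13 in PD1hi against Tconv (1459 ± 72.9 against 943.1 ± 79.6, adjusted p = 0.00312) and by 0.75 ± 0.13 in Treg against Tconv (1580 ± 55.9 against 943.1 ± 79.6, adjusted p = 0.00184).

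The genes whose levels ran most like each member were sought among 4014 tested genes whose population means span at least 1 log2 unit, by Pearson's r over the 9 values of population and experiment. These 9 values share libraries and experiments, and with 3 populations a high r is easily reached, so r only ranks genes here. Foxp3 was most like Itgae (r = 0.995), Il2ra (0.990), Gpr83 (0.989), the nucleotide sugar carrier Slc35d1 (0.988) and the nucleotide hydrolase Samhd1 (0.988). Samhd1 had 6044 ± 210 scaled counts in PD1hi, 22619 ± 1287 in Treg and 9216 ± 482 in Tconv. Ecm1 was most like Gata1 (0.997), a transcription factor best known from red cell precursors, the glucose carrier Slc2a3 (0.994) and the interferon induced GTPase Igtp (0.994). Gata1 had 22.2 ± 4.19 in PD1hi, 821.0 ± 88.0 in Treg and 216.8 ± 9.70 in Tconv. The erythroid and platelet marker list of 9 genes summed to 71.7 to 89.2 in PD1hi, 64.6 to 103.5 in Treg and 28.2 to 76.7 in Tconv, and its part in the Gata1 values was not tested. Fgl2 was most like Mxd1 (0.993), 2810474O19Rik (0.992) and Samhd1 (0.988).

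Capg was most like the TNF receptor family member Tnfrsf18 (0.992), 6330406I15Rik (0.992) and Vill (0.988), a relative of villin. Folr4 was most like Fah (0.994), Trib1 (0.991) and Naip5 (0.991), and Dst most like Naip5 (0.991), Hgfac (0.990) and Galm (0.989). Naip5, a sensor of bacterial flagellin, had 620.4 ± 42.5 in PD1hi, 534.4 ± 97.7 in Treg and 59.6 ± 17.6 in Tconv. Cd83 was most like Zfp870 (0.993), the Wnt carrier Wls (0.992) and Ypel2 (0.992). Plagl1 was most like the helicase Pif1 (0.991), B3galt1 (0.982) and Rab26 (0.980), and Pif1 had 92.1 ± 7.28 in PD1hi, 47.4 ± 5.17 in Treg and 17.4 ± 8.01 in Tconv. Among the 8 genes themselves, Foxp3 had r = 0.977 with Fgl2, 0.893 with Ecm1, 0.840 with Capg and between -0.065 and 0.326 with Folr4, Cd83, Dst and Plagl1.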

How the data were processed

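Total RNA of sorted mouse splenic CD4 T cells was measured in 13 libraries. Per the labels' protocols, RNA was taken up in Trizol, depleted of ribosomal RNA and made into Ion Torrent libraries. The submitters' processing notes name the tools Picard, HTSeq 0.5.4 and limma, and as builds hg19, GRCh37 and mm9. The sources used here give no aligner, no strand setting and no role for a build. The authors deposited 1 table of signal values, which its name calls scaled counts. After 1 was subtracted, each deposited value was a multiple of 1 constant per library, to within 0.001 of a read, and is called the scaled count.

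Where an experiment had 2 libraries of a population, their mean was used, which gave 9 values. Genes averaging 10 scaled counts or more were tested on log2(scaled count + 1) by limma 3.58.1 (R 4.3.3; mean-variance trend, 2-sided), with 1 variance for the 3 populations and Benjamini-Hochberg adjusted p under 0.05. The fit was tested on simulated data. Deposited symbols were matched to RefSeq for promoters and neighbours (names and gene order only for neighbours, since the builds may differ), and exon lengths are from GENCODE on GRCm38. Deviations from the population mean in the same experiment correlated at 0.243, 0.218 and 0.298 between Treg and Tconv, so experiments paired these samples. With PD1hi the correlations were 0.197, 0.125 and 0.019 (Tconv) and 0.092, 0.169 and -0.070 (Treg). The fit behind the calls did not pair populations by experiment. Calls gained or lost with experiment as a replicate block are given below.

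The members, lists and tests were chosen with earlier results of these data known. Named were all 8 members, up to 4 genes of each list with the largest change per comparison and direction (markers of other cell types only where they touch a member), the nearest neighbours, and the most similar genes (5 for Foxp3, 3 for each other member). Cd22, Cd81, Ctla4, S100a6, Nkg7, Igj, Sdc1, Prdm1, Irf4, Xbp1 and the 7 signature genes named without values were named after their values were seen. Alternatives were other pseudocounts, filters and scaling, a replicate block, all libraries fitted singly, only 2 populations, and leaving out each experiment of a population.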

Additional observations from a re-analysis of the deposited data

How the results depend on the processing

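The log2 fold changes of the 8 members moved by less than the spread between experiments under every alternative run (432 of 432). Most alternatives could not have given another result, so this count is no measure of stability. Leaving out 1 of 3 experiments always moves a mean by less than that spread. Filters, the replicate block and fitting only 2 populations leave the fold changes as they are. Among member fold changes near 0 in PD1hi against Treg, Cd83 ran from -0.19 (without PD1hi experiment 3) to 0.10 (without PD1hi experiment 6). Dst ran from -0.02 to 0.30 and Folr4 from 0.00 to 0.16, and every other member fold change kept its sign. Of 756 values of single neighbour genes, 725 stayed on their side of the threshold, 20 moved past it and 11 fell short of it. Counts of all genes, of other signature genes and of neighbours past the test stayed within 1.5 times in 157 of 162, and those of genes low in Treg, Foxp3 regulators and relatives in 160 of 162. The 2 exceptions there were relatives in PD1hi against Treg, where 3 passed, against 1 without PD1hi experiment 3 and 0 without Treg experiment 6. The 5 other exceptions were neighbours. In PD1hi against Tconv 2 passed, against 4 with the replicate block, 4 with the 13 libraries fitted singly, and 2 to 5 when 1 experiment was left out (5 without PD1hi experiment 6). In PD1hi against Treg 5 passed, and 3 to 6 when 1 experiment was left out (3 without Treg experiment 3 or 5). With the replicate block, which pairs populations by experiment, Tnfrsf4 (adjusted p = 0.0549 instead of 0.0369) and Hdac7 (0.0518 instead of 0.0373) no longer passed in PD1hi against Treg, and no other call of the Treg, regulator and relative lists or of neighbours was lost. Under the same block 9 calls of these genes were gained: Jarid2 (0.0189), Bend6 (0.0476), Foxo3 (0.0348) and Gata3 (0.0445) in PD1hi against Tconv, Jarid2 (0.0304), Tigit (0.0462) and Cd81 (0.0433) in PD1hi against Treg, and Gata3 (0.0483) and Bcl11b (0.0392) in Treg against Tconv, each an adjusted p. Scaling to equal totals moved the median of all genes to 0.14 in PD1hi against Tconv, and to 0.07 in PD1hi against Treg, where most calls were then higher (1320 higher and 1037 lower, instead of 1157 and 1189). The planned count models (edgeR and DESeq2) on reads worked back from the scaled values were not run, so how the calls would stand under them is not known. Pairs of libraries and 3 experiments limit the precision, and Plagl1 in Tconv rests on few reads.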

Other observations

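Fgl2 was the member that differed most within a pair of libraries of 1 experiment and population where reads were not near 0. The Tconv libraries of experiment 6 had 193.0 and 354.1 scaled counts, a difference of 0.87 on the log2 scale that is larger than that of 90.9% of genes tested in that pair. The second Treg library of experiment 3 was lower than the first for all 8 genes, by 0.07 (Capg) to 0.55 (Foxp3) on the log2 scale, where the median gene differed by 0.42 in either direction. For each of the 8 genes, the 5 Treg and the 5 Tconv libraries were examined for a library far from the others by Dixon's criterion, and 0 of 16 groups had one. Plagl1 in Treg came nearest, with a gap over range of 0.707 for the library of experiment 5, against a critical value of 0.71. The criterion takes the 5 libraries as independent, while most of them are pairs of 1 experiment. It therefore cannot settle whether a library stands apart.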
